A study of Homo sapiens with 6 samples.

Results

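A set of 9 genes of the epidermal growth factor (EGF) family was followed in macrophage-like THP-1 cells: the ligand genes AREG, EREG, HBEGF, TGFA, BTC and NRG1 and the receptor genes EGFR, ERBB2 and ERBB3. They were chosen by gene name, and all 9 are among the 57316 gene names of the count files. THP-1 is a human monocytic leukaemia line, and all 6 libraries came from cells first given the phorbol ester PMA at 100 ng/ml for 48 h, so no library without PMA is analysed here. Cells of 3 control libraries then had a control solution and cells of 3 CXCL10 libraries had recombinant human CXCL10 at 100 ng/ml, both for 24 h. Replicates are numbered 1, 3 and 4 in both groups. The labels do not say whether they were separate cultures, so every p-value measures only the spread between these libraries, which may be technical.

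Ligands of this family are made as membrane proteins whose outer part is cut off by metalloproteases of the ADAM family and then binds receptor tyrosine kinases on the same or on neighbouring cells. Binding pairs the receptors and starts the Ras and ERK cascade, which in turn induces feedback inhibitors. Macrophages are known mainly as a source of such ligands for epithelium and stroma during tissue repair, and PMA, which activates protein kinase C, is a classical trigger of ligand shedding.

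The deposited counts summed to between 34.8 and 41.0 M reads per library. Macrophage genes marked all 6 libraries. Of 11 listed markers 9 had a mean of at least 10 CPM (counts per M reads after scaling), led by CSF1R with 1520 CPM. Lowest of these 9 was LYZ with 12.5 CPM, and MRC1 had a mean of only 1.5 CPM. CD68 had only 0 to 5 reads, and 81.6% of its exon length is shared with other genes on its own strand, whose reads were left out of the counts. The epithelial markers EPCAM and KRT5 had 0 reads, and the 8 epithelial genes summed to 0.635 to 0.957 CPM in controls and 0.348 to 1.11 CPM after CXCL10. Summed lists of 7 fibroblast genes (23.9 to 34.1 CPM over all libraries, with PDGFRA alone at a mean of 25.1 CPM), 5 endothelial genes (1.23 to 3.67 CPM) and 7 lymphocyte genes (6.08 to 7.18 CPM) were low beside the 3010 to 3280 CPM of the macrophage list. The endothelial sums were higher after CXCL10 (2.60 to 3.67 against 1.23 to 2.30 CPM) and the lymphocyte sums lower (6.08 to 6.39 against 6.48 to 7.18 CPM), without overlap of the groups, and their part in the results was not tested. Control replicate 4 stood apart: its mean correlation across genes with the other libraries was 0.974, against 0.984 to 0.986 for the rest. Genes with less than 2 kb of exon had a median log2 CPM 0.24 above their own mean over libraries there, against -0.12 to 0.07 elsewhere.

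Promoters are shown for the 3 ligand genes AREG and HBEGF, which have the highest levels of the family, and EREG, which lies near AREG, each as 300 bases from 250 before to 50 after the RefSeq start, 5′ to 3′ on the gene's strand (build GRCh38.p14). The start of each window's gene is identical to that of the annotation behind the counts. AREG lies on chromosome 4 (chr4:74444886-74445185, plus strand), EREG a little upstream of it (chr4:74364895-74365194, plus strand) and HBEGF on chromosome 5 (chr5:140346554-140346853, minus strand). Capitals mark 3 motifs searched on both strands: the cAMP response element TGACGTCA, the TATA box TATAAA and the GC box GGGCGG, which is CCGCCC when read from the other strand.
AREG: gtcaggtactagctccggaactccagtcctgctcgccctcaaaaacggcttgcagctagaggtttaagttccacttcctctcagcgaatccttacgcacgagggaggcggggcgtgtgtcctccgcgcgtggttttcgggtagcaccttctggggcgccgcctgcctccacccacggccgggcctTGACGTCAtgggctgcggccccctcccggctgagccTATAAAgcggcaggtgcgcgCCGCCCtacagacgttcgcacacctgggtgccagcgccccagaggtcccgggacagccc
EREG: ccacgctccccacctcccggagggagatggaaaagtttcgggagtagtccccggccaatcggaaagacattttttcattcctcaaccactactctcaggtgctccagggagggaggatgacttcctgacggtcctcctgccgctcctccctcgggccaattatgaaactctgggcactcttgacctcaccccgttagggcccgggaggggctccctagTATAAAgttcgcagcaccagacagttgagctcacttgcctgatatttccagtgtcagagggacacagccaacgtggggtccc
HBEGF: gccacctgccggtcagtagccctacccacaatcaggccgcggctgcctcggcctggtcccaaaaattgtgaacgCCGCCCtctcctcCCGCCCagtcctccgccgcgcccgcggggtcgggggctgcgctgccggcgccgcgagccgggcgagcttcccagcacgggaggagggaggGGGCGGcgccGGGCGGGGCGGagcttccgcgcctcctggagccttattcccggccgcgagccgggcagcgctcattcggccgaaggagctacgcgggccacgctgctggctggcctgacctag
In AREG the TGACGTCA motif begins 65 bases before the start, a TATAAA motif begins 29 bases before it and a GC box begins 9 bases before it. EREG holds a TATAAA motif 32 bases before its start and neither of the other motifs. HBEGF holds 5 GC boxes, a pair of which overlap by 1 base, and no TATAAA or TGACGTCA. Of 35116 RefSeq promoter windows of this length, 1.85% hold TGACGTCA, 11.5% hold TATAAA and 45.0% hold GGGCGG. Windows were matched for 7 of the 9 genes used here. The matches describe these letters only.

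Per length of exon, 2 ligand genes stood far above the rest of the family. HBEGF had the highest level in every library, with 73.1 to 86.5 RPKM (CPM per kb of exon), which is above 96.8% of the genes tested. AREG followed with 32.6 to 63.0 RPKM, above 94.4% of the genes tested, and its range did not meet that of HBEGF. NRG1 came next with 1.76 to 2.44 RPKM, a mean 22.2 times below that of AREG. The 21.4 kb of exon counted for NRG1 join many alternative transcripts, and its RPKM refers to that whole length. EREG measured 0.364 to 0.880 RPKM, below NRG1 in all 6 libraries.

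The receptor genes and the remaining ligands lay near the lower end. ERBB2 had 0.255 to 0.434 RPKM and overlapped in range with EREG above it and with BTC below it, at 0.0975 to 0.402 RPKM. EGFR had 0.116 to 0.175 RPKM and TGFA 0.0768 to 0.208 RPKM. Their means, 0.158 and 0.156 RPKM, did not separate, and each was the higher one in 3 libraries. ERBB3 was last, with 0.00585 to 0.0286 RPKM from 2 to 10 reads per library, at or near the limit of detection of 3 fragments (6 reads, since both mates of a pair were counted). The range between the ligand and receptor genes is drawn in the plot of levels by library.

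**Figure D1:**
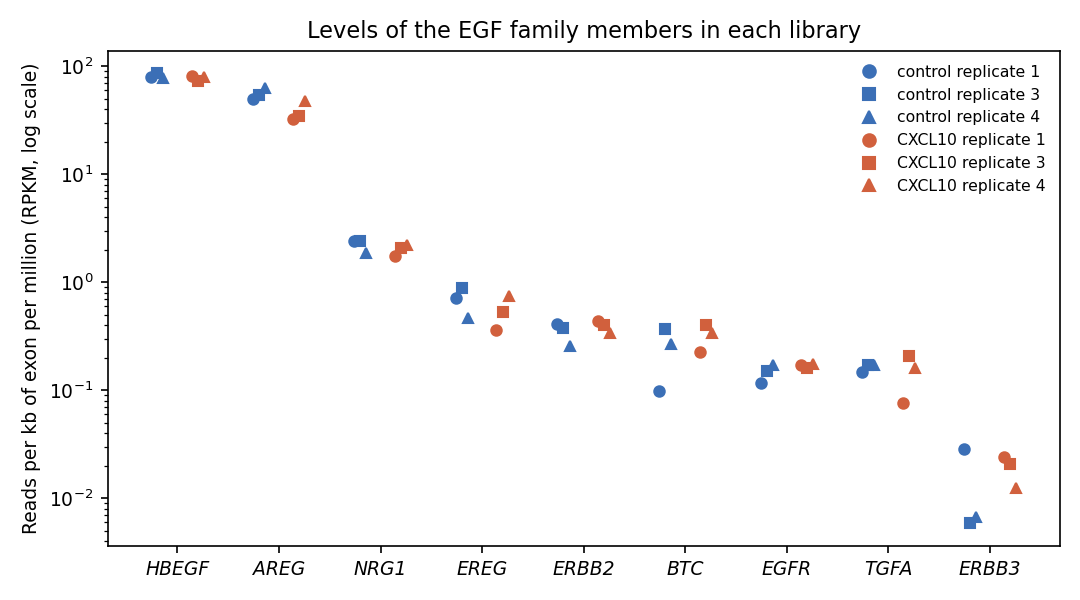
Level of each of the 9 EGF family genes (x axis, ordered by mean) in each of the 6 libraries (y axis, RPKM on a log scale), with colour for the group and symbol for the replicate number. HBEGF and AREG sit above 30 RPKM in every library, while the receptor genes EGFR, ERBB2 and ERBB3 stay below 0.5 RPKM.

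The comparison of CXCL10 with control asked whether a day with this chemokine is accompanied by other levels of these ligands and receptors. Differences were fitted with edgeR's quasi-likelihood test over 16531 genes with Benjamini-Hochberg adjustment. Of the 9 genes 8 passed its filter on low counts, ERBB3 being the exception. None of the 8 was called at an adjusted p under 0.05. Neither was any other gene: the share called was 0.0% of all genes tested by edgeR, DESeq2 or limma-voom, and the lowest adjusted p by edgeR was 0.683. The unadjusted p by edgeR was under 0.05 for 1181 genes (7.14% of those tested), 413 (2.5%) higher and 768 (4.65%) lower after CXCL10. Scaled by library size alone these were 744 and 407. DESeq2 counted 1211 and limma-voom 1182. Of the 8 family genes 1, AREG, was among the 768. Fitted differences lay below 0 for 5 of the 8, against 46.0% of all genes tested, and their median log2 fold change (here called log2 difference, CXCL10 minus control) was -0.10 against 0.02 for all genes. That median was -0.015 scaled by library size alone and 0.025 without CXCL10 replicate 1.

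AREG encodes amphiregulin, a ligand of the EGF receptor that leukocytes release in tissue repair (chromosome 4, 74445136 to 74455005, hg38). It measured 82.7, 89.2 and 103 CPM in control replicates 1, 3 and 4, and 53.6, 56.8 and 78.6 CPM in CXCL10 replicates 1, 3 and 4. Every CXCL10 library was thus below every control, though CXCL10 replicate 4 came within 5 CPM of control replicate 1. Groups that do not overlap were seen for 12.2% of all genes tested (6.48% lower, 5.76% higher after CXCL10), and among the 8 family genes for AREG only. The means were 91.8 ± 10.6 CPM and 63.0 ± 13.6 CPM (SD, n = 3 each). The log2 difference was -0.54 ± 0.16 (SE, as for all log2 differences given), that is 68.6% of the control level with a 95% interval from 54.0% to 87.2%. By edgeR the unadjusted p was 0.00461, the 43rd lowest of 16531, and the adjusted p was 0.683, so the difference did not pass. In bulk RNA, fewer cells making a transcript and less of it per cell cannot be told apart.

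AREG has only 1.64 kb of exon and was highest in control replicate 4, the library in which short genes were high as a class. Without that library its log2 difference was -0.45 (unadjusted p = 0.0121 by edgeR), and with each library's trend over gene length removed it was -0.455 (unadjusted p = 0.0120). Both steps together gave -0.385 (unadjusted p = 0.0215 by edgeR, adjusted p = 0.999). In that setting, added after the data were seen, EREG and NRG1 had lower unadjusted p-values than AREG (0.0189 and 0.0137 by edgeR). Among all genes tested, 596 had an unadjusted p under 0.05 by edgeR there, against 1181 in the fit to all 6 libraries. Over 16 other settings AREG stayed below 0, from -0.735 without CXCL10 replicate 4 to -0.385, and its adjusted p ran from 0.0652 to 0.999. The lowest came with no filter on low counts. These values are drawn in the plot of settings.

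**Figure D2:**
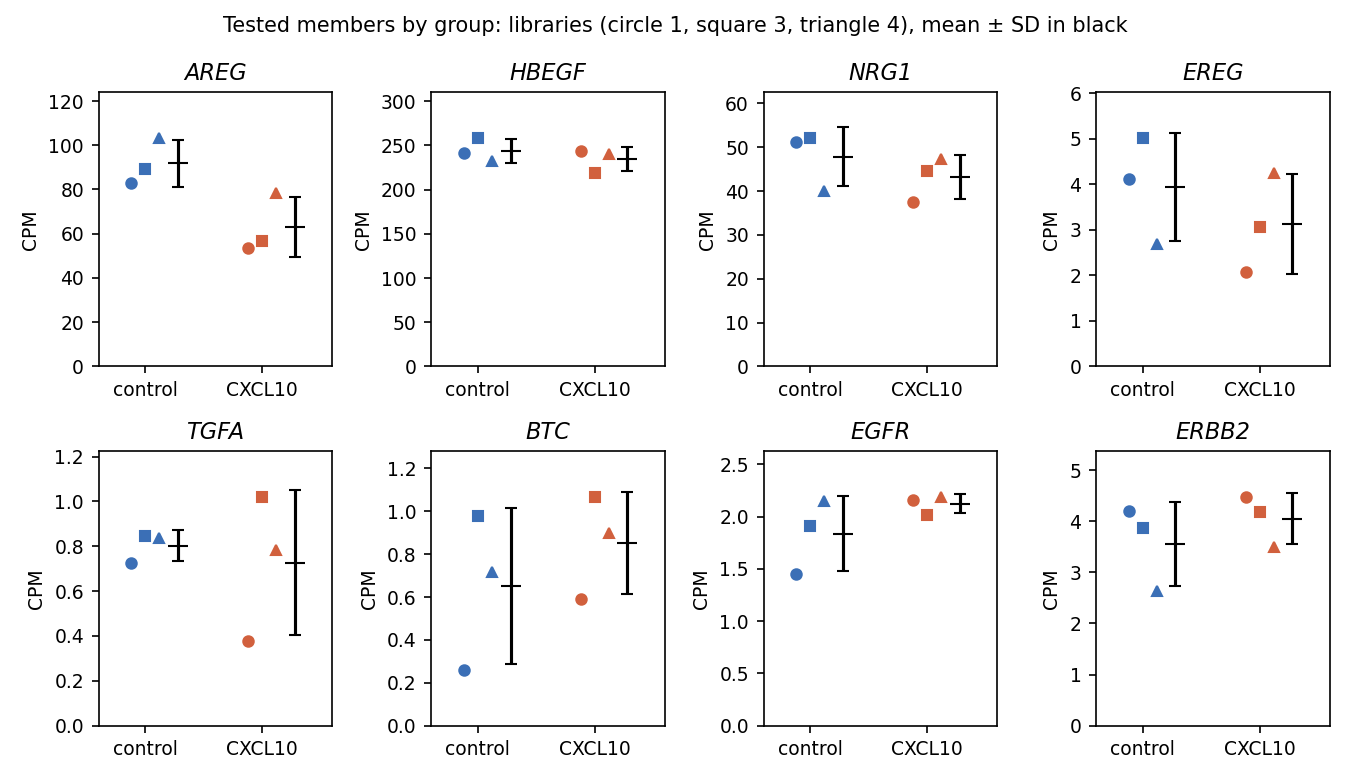
Normalised level of the 8 tested genes (y axes, CPM from 0) in control and CXCL10 libraries (x axes). Points are libraries, with circles, squares and triangles for replicates 1, 3 and 4, and black bars give the mean ± SD. AREG is the gene whose groups do not overlap, at 82.7 to 103 CPM against 53.6 to 78.6 CPM.

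HBEGF encodes heparin-binding EGF-like growth factor, a ligand of EGFR and ERBB4 whose membrane form is also the diphtheria toxin receptor (chromosome 5, 140332843 to 140346603). It varied little, with 241, 259 and 232 CPM in controls and 243, 219 and 240.5 CPM after CXCL10. The groups overlapped, with coefficients of variation of 5.59% and 5.77%. Its log2 difference was -0.06 ± 0.12 (adjusted p = 0.933 by edgeR). The 95% interval, from 80.2% to 115% of the control level, does not reach a difference of 1.5-fold in either direction.

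The make-up of the ligand transcripts followed these levels. HBEGF made up 60.0%, 59.8% and 54.1% of the summed RPKM of the 6 ligand genes in controls and 69.9%, 65.9% and 61.0% after CXCL10. The share of AREG was 37.5%, 37.5% and 43.9% in controls and 28%, 31.2% and 36.3% after CXCL10. Neither share overlapped between the groups, by narrow gaps on the side of CXCL10 replicate 4. The 2 genes made up nearly the whole sum, so a lower share of AREG means a higher share of HBEGF. The level of HBEGF itself overlapped between the groups, so the shares and the ratio largely repeat the AREG values. The highest share of AREG, 43.9%, was that of control replicate 4. The ratio of HBEGF to AREG was 1.47 ± 0.211 in controls and 2.10 ± 0.410 after CXCL10 (SD, n = 3 each). These shares were formed after the levels of AREG were known and were not tested.

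EREG and BTC lie with AREG in one stretch of chromosome 4 and encode the EGFR and ERBB4 ligands epiregulin and betacellulin. EREG (74365145 to 74388749) measured 4.11, 5.03 and 2.69 CPM in controls and 2.08, 3.06 and 4.26 CPM after CXCL10. Its groups overlapped widely, with control replicate 4 the lowest control, while AREG was highest there. The log2 difference was -0.34 ± 0.29 (adjusted p = 0.810 by edgeR), from -0.11 without control replicate 3 or CXCL10 replicate 1 to -0.54 without control replicate 4 (unadjusted p = 0.0484 by edgeR) and -0.62 without CXCL10 replicate 4. Without control replicate 4 and with the length trend removed it was -0.59 (unadjusted p = 0.0189 by edgeR, adjusted p = 0.999). BTC (74744759 to 74794523) rested on 10 to 46 reads per library, or 0.259, 0.979 and 0.718 CPM in controls and 0.593, 1.07 and 0.897 CPM after CXCL10. Its log2 difference of 0.39 ± 0.48 (adjusted p = 0.874 by edgeR) was 0.01 without control replicate 1, the lowest library, 0.84 without control replicate 3, 0.59 without CXCL10 replicate 1 and 0.20 without CXCL10 replicate 3.

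TGFA encodes transforming growth factor alpha, a high-affinity EGFR ligand (chromosome 2, 70447284 to 70554193). Its 14 to 44 reads per library corresponded to 0.725, 0.847 and 0.837 CPM in controls and 0.378, 1.02 and 0.785 CPM after CXCL10. The CXCL10 group held both the lowest and the highest library, and the log2 difference was -0.13 ± 0.43 (adjusted p = 0.959 by edgeR). It turned to 0.17 without CXCL10 replicate 1 and was -0.46 without CXCL10 replicate 3. It was -0.20 without control replicate 1 and -0.08 without control replicate 3. An interval from 48.2% to 173% of the control level shows how little this depth can tell about TGFA.

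NRG1 encodes neuregulin 1, which binds ERBB3 and ERBB4 and not EGFR (chromosome 8, 31639222 to 32855666). It was well covered, with 1339 to 1980 reads per library. Controls measured 51.2, 52.2 and 40.0 CPM and CXCL10 libraries 37.6, 44.7 and 47.3 CPM. Control replicate 4 lay within the CXCL10 range, so the groups overlapped. The log2 difference was -0.15 ± 0.15 (adjusted p = 0.846 by edgeR). It was -0.26 without control replicate 4 and -0.295 after removal of the trend over gene length (unadjusted p = 0.0587 by edgeR). Both together gave -0.39 (unadjusted p = 0.0137 by edgeR, adjusted p = 0.999). It was -0.10 without control replicate 1, -0.07 without control replicate 3 or scaled by library size alone, and -0.06 without CXCL10 replicate 1. Which NRG1 transcripts were made cannot be read from counts per gene.

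**Figure D3:**
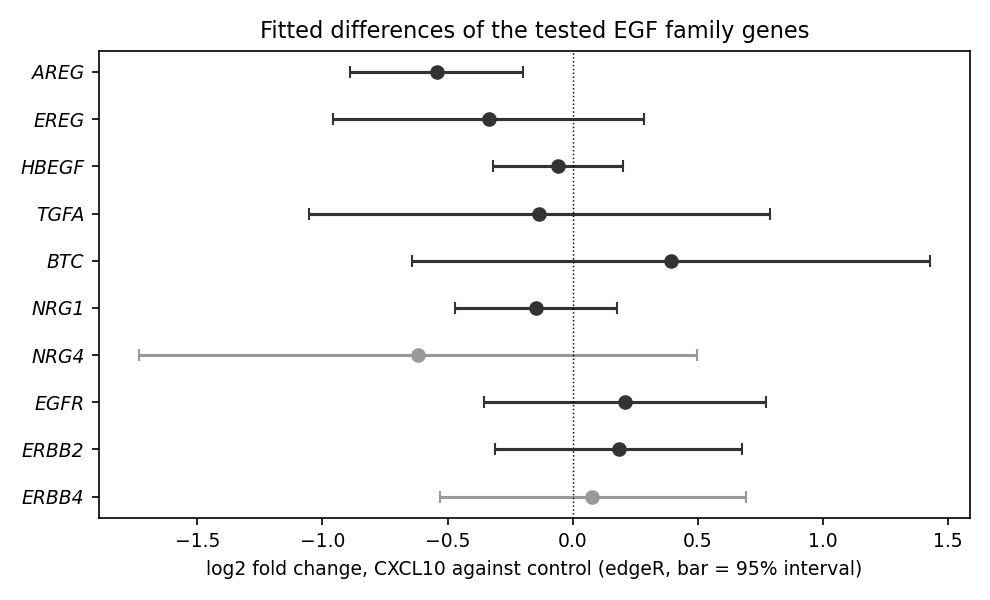
Fitted log2 fold change of CXCL10 against control (x axis) for the 8 tested genes in black and for NRG4 and ERBB4 in grey (y axis). Points are edgeR estimates and bars their 95% intervals. The interval of AREG, from -0.89 to -0.20, is the one that does not include 0.

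Among the receptors, ERBB2 encodes the partner receptor with no known ligand of its own (chromosome 17, 39687914 to 39730426). It measured 4.19, 3.86 and 2.63 CPM in controls and 4.48, 4.18 and 3.51 CPM after CXCL10, and the groups overlapped. Its log2 difference was 0.18 ± 0.23 (adjusted p = 0.876 by edgeR), which was 0.01 without control replicate 4, the lowest library, 0.11 without CXCL10 replicate 1, 0.32 without control replicate 1, 0.28 without CXCL10 replicate 4 and 0.08 after removal of the trend over gene length. Of its exon length 6.93% lies opposite MIEN1 and PGAP3, and the strand-blind counting left out reads over both genes there. EGFR, the receptor of AREG, EREG, HBEGF, TGFA and BTC (chromosome 7, 55019017 to 55211628), rested on 56 to 87 reads per library. Controls measured 1.45, 1.91 and 2.15 CPM and CXCL10 libraries 2.16, 2.02 and 2.19 CPM. The log2 difference was 0.21 ± 0.26 (adjusted p = 0.876 by edgeR). It was 0.06 without control replicate 1, the lowest library, 0.34 without control replicate 4 and 0.085 after removal of the trend over gene length. ERBB3, a receptor with little kinase activity (chromosome 12, 56076799 to 56103505), had 10, 2 and 2 reads in controls and 8, 8 and 4 after CXCL10, and no fold is given.

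The receptor total was small beside the ligands. Ligand RPKM summed to 134, 145 and 143 in controls and 116, 111 and 132 after CXCL10, without overlap. EGFR, ERBB2, ERBB3 and ERBB4 together gave 0.670 ± 0.0806 RPKM in controls and 0.754 ± 0.0393 RPKM after CXCL10 (SD, n = 3 each). The ligand sum is carried by HBEGF and AREG, so it is not separate from the AREG values, and it was not tested.

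The 6 other genes of the family were scarce. ERBB4, the second neuregulin receptor, measured 1.46 to 2.76 CPM over all libraries, with a log2 difference of 0.08 ± 0.285 (adjusted p = 0.964 by edgeR) that turned below 0 in 4 of 16 other settings. NRG4 rested on 7 to 22 reads in each library, with a log2 difference of -0.62 ± 0.52 (adjusted p = 0.807 by edgeR). Without control replicate 4 this was -0.35, without CXCL10 replicate 1 it was -0.36, and 38.2% of its exon length lies opposite FBXO22. EGF had 8, 4 and 14 reads in controls and 0, 32 and 2 after CXCL10. NRG2 had 0 to 15 reads and EPGN 0 to 4. NRG3 had 0 reads in all 6 libraries, which allows 0.139 to 0.179 CPM per library, a limit of 3 fragments (6 reads) that covers counting error only.

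By pattern over the 6 libraries, each family gene with at least 1 CPM was matched with the genes of at least 10 CPM closest to it. Likeness was the root mean square difference between log2 CPM values after each gene was centred and divided by its SD, so 0 means the same pattern. Each search ran over 8562 or 8563 genes with only 6 points per gene, and the likeness is a description. AREG was closest to SLC35E4 (0.125), MTHFD2L (0.171) and SLC25A17 (0.215). EREG was closest to UBE2E1 (0.169), VAPB (0.171) and CXorf38 (0.256). HBEGF was closest to FAM32A (0.141), PIAS4 (0.160) and FBXO7 (0.174). NRG1 was closest to ABHD17C (0.264), SCG5 (0.282) and NUMB (0.285). EGFR was closest to C5orf15 (0.144), IRF8 (0.327) and LRP1 (0.339), and ERBB2 to DDX11 (0.117), ZNF362 (0.145) and POLE (0.173). Among these 6 genes, counting error weighs most on EGFR (56 to 87 reads per library), EREG (77 to 190) and ERBB2 (88 to 180). Within the family EREG and NRG1 were the closest pair at 0.274, while AREG and EREG stood at 0.995 and AREG and HBEGF at 1.16.

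**Figure D4:**
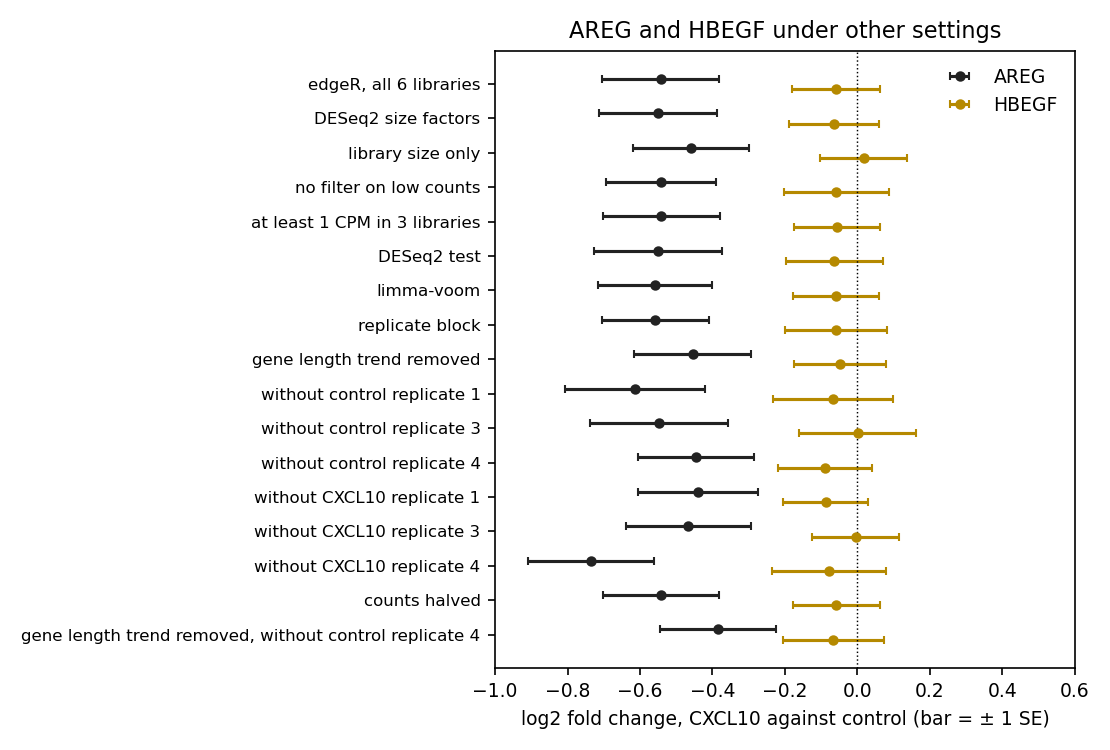
Log2 fold change of AREG (black) and HBEGF (yellow) on the x axis under the edgeR fit to all 6 libraries and 16 other settings on the y axis, with bars of 1 SE. AREG lies between -0.735 and -0.385 throughout, and HBEGF between -0.09 and 0.02.

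Genes that release the ligands, carry the receptor signal or damp it were read from 4 lists, which together with the 6 family genes just described hold 70 genes, 65 of them tested. None was called by edgeR, 3 (4.62%) had an unadjusted p under 0.05 against 7.14% of all genes tested, and 7 (10.8%) had groups without overlap against 12.2%. Of all genes tested 54.0% had differences above 0, or 45.5% after removal of the trend over gene length. None of the direction counts of the lists was tested. With no filter on low counts 2 were called, ADAM9 and ADAM17.

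Ligand shedding and trafficking genes had a median log2 difference of 0.13, and of 13 genes 11 lay above 0 and 2 had an unadjusted p under 0.05. The count above 0 was 8 after removal of the length trend and 7 without control replicate 4. With both steps together it was 6, where 48.3% of all genes tested lay above 0, and the list's median was -0.036. ADAM17 encodes the main sheddase of AREG, HBEGF and TGFA. It measured 32.6, 37.0 and 13.3 CPM in controls and 38.6, 46.7 and 52.7 CPM after CXCL10, without overlap but with control replicate 4 far below all others. The fitted log2 difference was 0.73 ± 0.28 (adjusted p = 0.683 by edgeR) and 0.40 without that library (unadjusted p = 0.0207 by edgeR, adjusted p = 0.997). ADAM9, a related membrane protease, was also lowest in control replicate 4, with 39.6, 40.1 and 10.6 CPM in controls and 49.8, 77.0 and 62.2 CPM after CXCL10. The fitted log2 difference of 1.06 ± 0.35 (adjusted p = 0.683 by edgeR) was 0.66 without control replicate 4 (unadjusted p = 0.000929 by edgeR, adjusted p = 0.997). Their standing depended on the test. With no filter on low counts edgeR gave an adjusted p of 9.67e-07 for ADAM9 and 0.00806 for ADAM17, while by DESeq2 the unadjusted p was 0.0679 and 0.0981. Leaving out control replicate 4 and removing the length trend together gave 0.31 for ADAM17 (unadjusted p = 0.0563 by edgeR). For ADAM9 the same steps gave 0.59 (unadjusted p = 0.000626 by edgeR, adjusted p = 0.82). ADAM10, which sheds BTC and EGF, had 0.30 ± 0.17 with 1 library, CXCL10 replicate 3, well above the rest at 169.5 CPM, and 0.06 without it. BACE1, a protease known to cut NRG1, had 0.23 ± 0.15, and 0.15 without control replicate 4.

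Adaptor and relay genes had a median of 0.14, with 13 of 18 above 0 (11 after removal of the length trend) and 1 at an unadjusted p under 0.05. That gene was HRAS, a Ras GTPase, with 53.3, 51.9 and 73.6 CPM in controls and 49.1, 41.1 and 43.6 CPM after CXCL10. Control replicate 4 was again the extreme library, and the log2 difference of -0.42 ± 0.16 (adjusted p = 0.683 by edgeR) was -0.23 without it. The kinase gene MAP2K2 had -0.30 ± 0.15, while PLCG1, a phospholipase, and SHC1, an adaptor, had 0.32 ± 0.16 and 0.38 ± 0.20. Control replicate 4 was the highest library for MAP2K2 and the lowest for PLCG1 and SHC1, and without it the 3 values were -0.18, 0.19 and 0.15.

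Receptor inhibitors and turnover genes had a median of 0.11, with 14 of 16 above 0 and 0 at an unadjusted p under 0.05. After removal of the length trend 8 of the 16 lay above 0 and the median was -0.004. CBL, a ubiquitin ligase that sends EGFR to degradation, measured 115 ± 6.82 CPM in controls and 135 ± 8.94 CPM after CXCL10 (SD, n = 3 each), a log2 difference of 0.23 ± 0.12 without overlap of the groups, which was 0.11 after removal of the length trend. PTPN1, a phosphatase that acts on EGFR, USP8, a deubiquitinase of endocytosed receptors, and LRIG3, a membrane protein of the LRIG family, had 0.24 ± 0.16, 0.25 ± 0.19 and 0.47 ± 0.40. Single libraries moved these values: PTPN1 had 0.08 without control replicate 4 and 0.38 without control replicate 3, and LRIG3 had 0.25 and 0.91. USP8 had -0.04 without CXCL10 replicate 3, 0.40 without CXCL10 replicate 1 and 0.07 after removal of the length trend.

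Transcripts known to follow EGF receptor signalling had a median of -0.04, with 10 of 16 below 0 and 0 at an unadjusted p under 0.05. The median turned to 0.04 scaled by library size alone, where 5 of 16 lay below 0, to 0.01 without CXCL10 replicate 1 and to 0.009 without control replicate 3. FOSL1, an AP-1 subunit, measured 38.6 ± 0.772 CPM in controls and 33.2 ± 4.70 CPM after CXCL10, a log2 difference of -0.22 ± 0.14. Its groups were only just apart, at 37.9 CPM in control replicate 3 and 37.8 CPM in CXCL10 replicate 1, and the difference was -0.11 without CXCL10 replicate 3. ETV4, an ETS factor induced by ERK, had -0.26 ± 0.19 without overlap, and its relative ETV5 had 0.14 ± 0.13, from 0.07 without CXCL10 replicate 4 to 0.22 without CXCL10 replicate 3. IER3, an early response gene, had 0.34 ± 0.36 on 22 to 74 reads, from 0.03 without control replicate 4 (0.18 without CXCL10 replicate 1) to 0.62 without control replicate 3. None of these differences passed edgeR's test, and the lowest adjusted p in the list was 0.765.

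**Figure D5:**
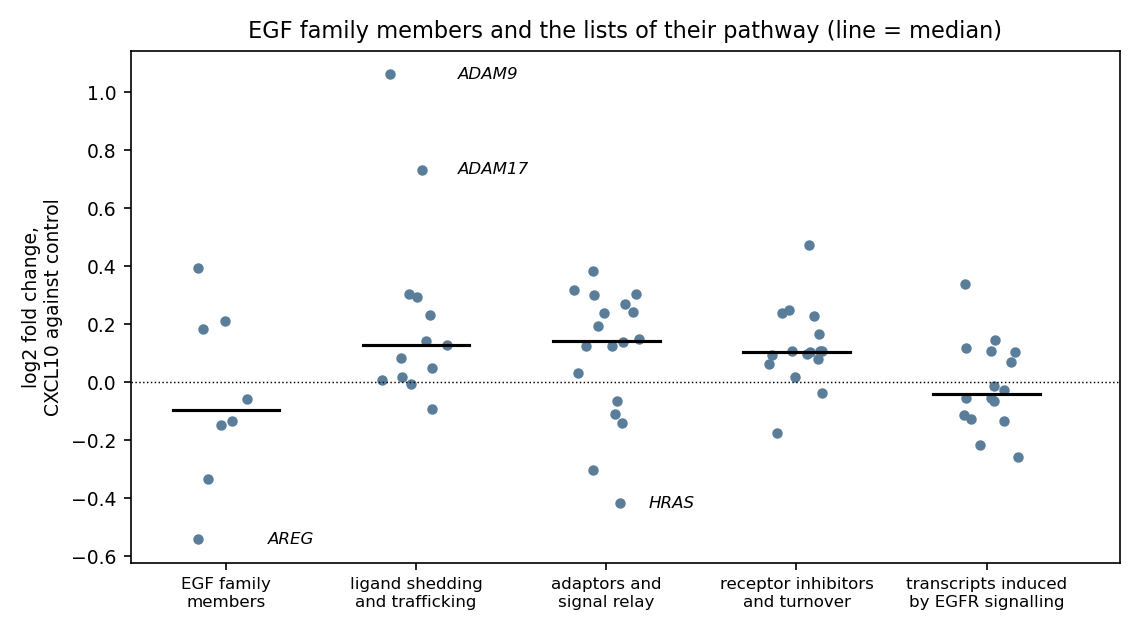
Log2 fold change of CXCL10 against control (y axis) for the tested EGF family genes and 4 pathway lists (x axis); each point is a gene, the line is the list's median, and genes with an unadjusted p under 0.05 are named. Medians lie between -0.10 and 0.14, and the named genes are AREG, ADAM9, ADAM17 and HRAS.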

How the data were processed

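Polyadenylated RNA of 6 libraries was sequenced after preparation with a stranded Illumina mRNA kit, per the labels' protocols. The deposited values are raw counts of reads per gene, which the authors obtained by running featureCounts 2.0.6 over GENCODE 30 exons grouped by gene name, per the file headers. Trim Galore, STAR and Subread and the build hg38 are named in the submitters' processing notes, with versions not given in the sources used here. Per the file headers both mates of a pair were counted, no strand was set, and reads over 2 genes were left out. A fragment can therefore give 2 reads, which overstates the number of molecules. Reads over exons shared by opposite genes were counted for neither gene.

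Here, edgeR 4.0.16 in R 4.3.3 was run on the counts as deposited (filterByExpr, TMM factors, quasi-likelihood fit with group as the only term, Benjamini-Hochberg adjustment over 16531 genes, threshold 0.05). CPM used TMM-scaled totals of the filtered genes, and RPKM divided CPM by the deposited exon length. Each standard error is the size of the log2 fold change divided by the root of its F statistic. No pair of libraries was identical. Members, lists and settings were chosen with earlier results of these data known. Named were all 15 genes of the family, up to 4 genes with the lowest p-value from each of the other 4 lists, and the 3 genes closest in pattern to each member with a mean of at least 1 CPM (among genes of at least 10 CPM, leaving out symbols with a dot or dash and LINC, MIR and SNOR genes). Other settings were DESeq2 1.42.0 and its size factors, library size only, 2 other filters, limma-voom (limma 3.58.1), each library left out, a replicate block, and a local regression per library that takes out the trend over gene length. Halved counts, and the length trend removed without control replicate 4, were added after seeing the data. Promoters are RefSeq windows on GRCh38.p14. NRG1 promoter sequence is not shown, and protein sequences are not used here.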

Additional observations from a re-analysis of the deposited data

How the results depend on the processing

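No EGF family gene was called under any of the 16 other settings, and no gene of any kind was called except with no filter on low counts, where edgeR called 137 genes (45 higher, 92 lower), 2 of them on the pathway lists. Signs turned for HBEGF (0.017 scaled by library size only, 0.001 without control replicate 3, against -0.09 without control replicate 4), for TGFA (0.173 without CXCL10 replicate 1, from a lowest value of -0.459 without CXCL10 replicate 3) and for USP8 (-0.036 without CXCL10 replicate 3, up to 0.396 without CXCL10 replicate 1). ERBB4 turned to -0.068 once the trend over length was taken out, to -0.089 without CXCL10 replicate 3 and to -0.016 without CXCL10 replicate 4, against 0.313 without CXCL10 replicate 1. Leaving out control replicate 4 and taking out the length trend together gave -0.077 for ERBB2 and -0.115 for ERBB4. The cause was not tested. With counts halved AREG had -0.54. At an unadjusted p under 0.05 edgeR counted between 626 (without CXCL10 replicate 3) and 2103 genes (without CXCL10 replicate 1). These are fits with a library left out and no other change. It counted 649 without control replicate 4, 649 without CXCL10 replicate 4 and 2049 with no filter. The deviations of same-numbered libraries from their group means correlated at 0.026, 0.019 and -0.051, so no pairing by number was seen. With 3 libraries per group this check cannot show that there was none. Control replicate 1 correlated best with CXCL10 replicate 4. With a replicate block edgeR called 0 genes, 1323 had an unadjusted p under 0.05, and AREG had -0.56. Depth limits TGFA, BTC, NRG4, EGF, NRG2, EPGN and ERBB3, all at 46 reads or fewer in every library.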

Other observations

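The surroundings of AREG on chromosome 4 hold other expressed genes. Within 500 kb of its start 10 genes were tested, AREG included, and 8 of them had fitted log2 fold changes below 0, against 46.0% of all genes tested. These 8 include AREG itself and MTHFD2L, through which the stretch came up. They also include PPBP, with 6.7, 4.5 and 17.9 CPM in control replicates 1, 3 and 4. CXCL5 (-0.11 ± 0.42, with a control mean of 0.69 CPM) and PARM1 (-0.03 ± 0.12) count among the 8 too. The count of 8 is given for the edgeR fit to all 6 libraries only. Groups that did not overlap were seen for AREG alone, 1 of 10, near the 12.2% of all genes tested. The gene with the next lowest p was MTHFD2L, which encodes a mitochondrial folate enzyme and lies upstream of EPGN and EREG (74114174 to 74303099, hg38). It is also the second closest gene to AREG in pattern over the 6 libraries. MTHFD2L measured 46.9, 52.6 and 58.8 CPM in controls and 36.4, 35.8 and 49.1 CPM with CXCL10, and CXCL10 replicate 4 lay between the first and the second control. Its log2 fold change was -0.38 ± 0.16 (unadjusted p = 0.0290 and adjusted p = 0.683 by edgeR). PARM1, on the other side of BTC and the gene with the most CPM among these 10 (not divided by exon length), measured 176 ± 8.99 CPM and 172 ± 4.58 CPM (SD, n = 3 each), with a log2 fold change of -0.03 ± 0.12. The stretch was looked at after MTHFD2L had come up in the search for like patterns, and no test of neighbours against other genes was run.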
